A study of Mus musculus with 17 samples.

Results

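Protocadherins are the largest group of the cadherin family of calcium-dependent adhesion proteins, and most of them are made in neurons. The clustered genes lie in 3 neighbouring arrays, Pcdha, Pcdhb and Pcdhg, in which each neuron switches on a small, partly random set of variable exons from their own promoters; in Pcdha and Pcdhg the variable exon is spliced to constant exons shared by the whole array. Their proteins bind the same isoform on another membrane and give a neuron a surface identity used for self-avoidance of dendrites, while the non-clustered genes are scattered over the genome and act in axon growth, cell sorting and synapse formation.

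The genes were all rows of the count table whose symbol starts with Pcdh. They were 71 of 23284 genes, of which 59 were clustered (15 Pcdha, 22 Pcdhb and 22 Pcdhg) and 12 non-clustered (Pcdh followed by a number). The libraries are poly-A RNA-seq of the upper part of mouse cortex, taken from the somatosensory and parietal areas, and the mice were of a mixed strain (Bl6/129S). The groups were mGfapCre+:Tsc1CKO mice, which lose Tsc1 in cells with a history of the mouse Gfap promoter, at 15 weeks (n = 4) and 4 weeks (n = 5), and mGFAPCre+ littermate controls, which carry the Cre recombinase too, at 15 weeks (n = 3) and 4 weeks (n = 5). Tsc1 encodes hamartin, a brake on the kinase mTOR. The labels do not say whether the libraries are 17 different mice, so every p-value measures the spread between these libraries, which may be technical. The labels name no batch, so the sequencing of the 2 ages cannot be told apart from age.

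Library totals were between 13492007 and 24583430 counts, and the ribosomal transcript Rn45s took 2.43% to 10.7% of them. Levels are given as CPM, counts per 1000000 of the library size scaled by edgeR's TMM method. The targeted gene Tsc1 was at 98.1, 82.2, 131 and 105 CPM in the 15-week Tsc1CKO libraries and at 114, 118 and 133 CPM in controls (edgeR log2 fold change -0.20 ± 0.16, SE, adjusted p = 0.449), and at 4 weeks its log2 fold change was -0.00 ± 0.07 (edgeR adjusted p = 0.983). Whole-gene counts therefore did not separate the genotypes by Tsc1, and bulk cortex cannot tell fewer cells of a type from less RNA per cell. Gfap, the astrocyte filament gene, was at 3498, 5054, 2943 and 996 CPM in 15-week Tsc1CKO replicates 1 to 4 and between 104 and 134 CPM in the 3 controls. Replicate 4, nearest to the controls in Gfap, and replicate 2, with the highest Rn45s share and 52.4 CPM of the pituitary hormone gene Gh against at most 2.67 CPM in the other 15-week libraries, stood apart from the rest of their group. Gh varied more at 4 weeks, at 136, 346, 1.22, 13.8 and 273 CPM in Tsc1CKO and at 34.2, 44.3, 93.3, 0.848 and 0.0405 CPM in controls. Counts of protocadherin calls that rest on the 15-week Tsc1CKO group are given with and without each.

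The protocadherins were a small part of the RNA, and not all were well counted. The mean count over the 17 libraries was 4132 for Pcdh7, 51.4 for Pcdha7 and 16.9 for Pcdha8. Together the protocadherins took 0.189% to 0.200% of the counts in 15-week controls and 0.136% to 0.144% in 4-week controls. In Tsc1CKO they took 0.113% to 0.172% at 15 weeks and 0.125% to 0.148% at 4 weeks. The 12 non-clustered genes made up 63.0 ± 0.298% (SD, n = 3) of protocadherin CPM in 15-week controls and 65.0 ± 0.864% (SD, n = 5) in 4-week controls, so the 59 clustered genes together were fewer than the 12.

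Per kilobase of exon, Pcdh9 was highest in 15-week controls at 64.5 ± 4.56 CPM per kb (SD, n = 3) and Pcdh7 followed at 53.1 ± 0.410. Both are delta-type protocadherins of neurons. Pcdh10, another delta protocadherin used in axon pathfinding, was at 26.1 ± 1.82 CPM per kb, Pcdh1 at 16.01 ± 1.85, Pcdh8 at 10.3 ± 2.40, Pcdh17 at 8.09 ± 0.705 and Pcdh20 at 7.89 ± 1.63. Pcdh17 and Pcdh20 did not differ beyond their SD. The highest of the 22 Pcdhb genes was Pcdhb17 at 6.95 ± 0.0670 CPM per kb, and the lowest was Pcdhb1 at 0.0299 ± 0.0333, the lowest of all 33 genes with a length; Pcdh12, a protocadherin of blood vessel walls, was next lowest at 0.103 ± 0.0256. The exon lengths come from the GENCODE vM1 annotation, which gives Pcdh9 hardly more than its coding part (3714 bases of exon, 3711 of coding sequence), so its level per kb is too high where its reads lie outside that part. Pcdha and Pcdhg genes have no level per kb because that annotation merges each array into a few gene records, and the counting of their shared exons is not given in the sources used here. Their gene-level values are therefore uncertain to the extent that reads of shared exons were split or dropped.

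Within Pcdha and Pcdhg, reads were concentrated in Pcdhac2, Pcdhgc5 and Pcdhgc3. These are C-type isoforms, the last variable exons of each array, which most neurons use without random choice. The C-type isoforms Pcdhac1 and Pcdhgc4 did not stand out in this way. In the mean of all 17 libraries Pcdhac1 was at 4.47 CPM, below Pcdha12 at 6.63 CPM. Pcdhga11 was at 17.6 CPM in that mean, above Pcdhgc4. Pcdhac2, which spaces serotonergic axons, held 46.8 ± 0.239% of Pcdha CPM in 15-week controls and 45.2 ± 3.05% in 4-week controls. Pcdhgc5 and Pcdhgc3 held 29.9 ± 2.07% and 16.1 ± 0.788% of Pcdhg CPM in 15-week controls (SD, n = 3). Not all members were usable. Pcdha4 had at most 0.167 CPM in any library and Pcdha4-g was at 0 in all 17. How reads were divided between these 2 symbols is not given in the sources used here. Neither these 2 nor Pcdhb1 passed the filter on low counts in any comparison, and Pcdh12 failed it in the 15-week genotype comparison, which leaves 67 members tested there and 68 in each of the others.

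The first comparison was of age in the controls, 15 against 4 weeks. Most protocadherins were higher at 15 weeks: 51 of 68 members rose, where 22.4% of all 15007 genes tested did, and 1 fell, where 19.3% of all genes did (edgeR quasi-likelihood test, Benjamini-Hochberg adjusted p under 0.05 over all genes). By array, 10 of 13 Pcdha genes rose (median log2 fold change 0.75), 13 of 21 Pcdhb (0.49) and 20 of 22 Pcdhg (0.92), and 0 of these 56 fell by edgeR, also at an unadjusted p under 0.05, where 23.7% of all genes were lower. In all, 64 of 68 members had a positive value, where 49.9% of all genes did. Clustered genes together had a median of 0.73, the non-clustered 0.53 with 8 of 12 higher, and all genes tested -0.00. Whether the arrays differ from each other was not tested. In 46 of the 68 every 15-week control was above every 4-week control, and in 0 below; over all genes tested these shares were 21.9% and 19.1%.

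**Figure D1:**
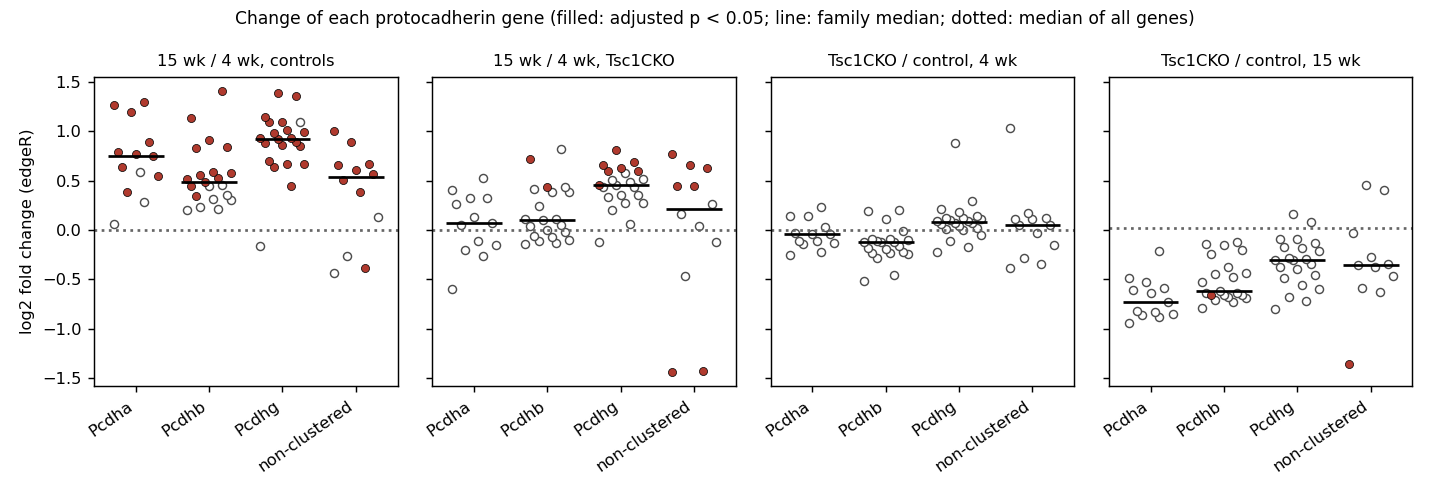
Log2 fold change (edgeR) of each protocadherin gene in 4 comparisons, by array; each point is 1 gene, filled where the adjusted p is under 0.05, with the array's median as a bar and the median of all genes as a dotted line. Nearly all points of the left panel (age in controls) lie above 0, and nearly all of the right panel (genotype at 15 weeks) lie below 0 with 2 of them filled.

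Of the C-type isoforms, Pcdhgc5, which binds GABA-A receptors, was at 121, 120.6 and 137 CPM in 15-week controls and at 69.8, 62.6, 72.2, 68.7 and 68.9 CPM in 4-week controls. The groups did not overlap, and the log2 fold change was 0.89 ± 0.07 (SE, edgeR adjusted p = 1.88e-05). Pcdhac2 was at 53.1, 53.8 and 51.7 CPM at 15 weeks and at 29.1, 29.0, 28.1, 32.6 and 24.6 CPM at 4 weeks, a change of 0.89 ± 0.09 (edgeR adjusted p = 3.08e-05), again without overlap. Pcdhgc4, needed for survival of cortical interneurons, rose by 0.92 ± 0.12. Pcdhac1 rose by 0.38 ± 0.14 with an edgeR adjusted p of 0.0479, close to the threshold.

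Pcdhgc3, which promotes dendrite branching through Axin1, was the 1 clustered gene with a negative value. Its levels were 64.2, 70.9 and 68.9 CPM in 15-week controls and 79.1, 84.0, 84.7, 53.1 and 80.0 CPM in 4-week controls, with 4 of the 5 younger libraries above every older one and replicate 4 below. The log2 fold change was -0.16 ± 0.13 (edgeR adjusted p = 0.368). As a share of Pcdhg CPM, Pcdhgc3 was 15.3%, 16.8% and 16.3% at 15 weeks and 30.2%, 31.4%, 29.7%, 21.9% and 29.1% at 4 weeks. Those shares did not overlap, and 20 of the other 21 genes of the array rose.

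Among the variable isoforms the highest fold changes in controls were those of Pcdhb2 (1.40 ± 0.24), Pcdhga9 (1.39 ± 0.16), Pcdhga2 (1.35 ± 0.21), Pcdha12 (1.29 ± 0.18) and Pcdha11 (1.26 ± 0.24), each with an edgeR adjusted p under 0.05. Pcdhga9 was at 11.5, 9.11 and 7.49 CPM in 15-week controls and at 3.19, 3.96, 3.70, 3.39 and 3.65 CPM in 4-week controls. Pcdha12 was at 10.2, 11.1 and 12.96 CPM against 4.82, 3.24, 4.38, 6.498 and 4.42 CPM. In both genes the lowest older library was above the highest younger one. Pcdhgb8 had a log2 fold change of 1.09 ± 0.49 that did not pass (edgeR adjusted p = 0.108), for its libraries differed widely within each age, as described further on.

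The non-clustered genes divided into 8 that rose, 1 that fell and 3 that did not pass. Pcdh1 was at 126, 127 and 153 CPM at 15 weeks and at 56.1, 59.0, 66.4, 75.0 and 82.8 CPM at 4 weeks, a log2 fold change of 1.00 ± 0.12 (edgeR adjusted p = 0.000113). Pcdh11x (mm9 chromosome X, 117403868 to 118024228, plus strand) rose by 0.89 ± 0.11, from 17.2, 16.7, 15.2, 16.6 and 17.6 CPM to 30.5, 36.1 and 26.0 CPM. Pcdh19 (chromosome X, 130117402 to 130223532, minus strand), the gene of an epilepsy of heterozygous girls, rose by 0.67 ± 0.09, and Pcdh17, which assembles presynaptic sites, by 0.61 ± 0.08. In these 4 genes the ages did not overlap.

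Pcdh9 (chromosome 14, 93414731 to 94287951, minus strand) was at 252, 247 and 220.3 CPM against 157, 148, 139.7, 167 and 149.8 CPM, a change of 0.66 ± 0.07 (edgeR adjusted p = 5.27e-05). Pcdh7 (chromosome 5, 58109260 to 58520590, plus strand) was at 332, 327 and 331 CPM against 221, 227, 221, 240.3 and 211 CPM, a change of 0.56 ± 0.06. Among the 3 older controls Pcdh7 varied by only 2.54 CPM (SD) around a mean of 329.7. Pcdh8, an activity-regulated delta protocadherin, rose by 0.50 ± 0.14 and Pcdh10 by 0.38 ± 0.07.

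Pcdh15, a tip-link protein of inner-ear hair cells, was the member that fell. It was at 24.4, 36.2 and 29.4 CPM at 15 weeks and at 37.8, 43.8, 35.2, 36.2 and 43.2 CPM at 4 weeks, so the ages overlapped in 15-week control replicate 2, and the log2 fold change was -0.38 ± 0.12 (edgeR adjusted p = 0.0273). The call was lost without 15-week control replicate 1 or 3, without 4-week control replicate 2 or 5, and in the fit of all 17 libraries. Pcdh18 (0.13 ± 0.14), Pcdh12 (-0.26 ± 0.45) and Pcdh20 (-0.43 ± 0.34) did not pass. Pcdh20 was at 73.1, 72.3, 68.1, 34.8 and 32.0 CPM in the 4-week controls, a gap between replicates 1 to 3 and replicates 4 and 5 that was wider than the difference between the ages. Gh, given above, splits these 5 libraries the same way, but it did not split the 4-week Tsc1CKO libraries so. There replicate 2, at 346 CPM of Gh, was highest in Pcdh20. Replicate 4, at 13.8 CPM of Gh, came next, and replicate 1, at 136 CPM of Gh, was lowest. The part of Gh in the Pcdh20 values was not tested.

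Between 43 and 52 members were called higher with age in controls in the alternative fits run, each control library left out included; DESeq2 called 50, where 22% of all genes were. Transcript length moved with age over all genes: of the longest of 3 equal classes by exon length 37.4% rose (median 0.16), and of the shortest 8.44% (median -0.20). Its part in the protocadherin result was not tested. Of neuron markers, 4 of 9 excitatory and 6 of 10 inhibitory genes rose in the same comparison and 2 of the inhibitory genes fell, 4 of 12 astrocyte markers fell, and the summed excitatory markers ranged from 7916 to 10053 CPM in 15-week controls and from 8285 to 9959 CPM in 4-week controls, with none of the 9 at 0. Summed astrocyte markers ranged from 7529 to 8471 CPM in the older controls, with none of the 12 at 0. In replicates 1 to 5 of the younger controls they were at 11092, 11543, 11752, 7082 and 11204 CPM. Replicate 4 thus lay below every older control and the rest lay above. The part of either cell type in the result was not tested.

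**Figure D2:**
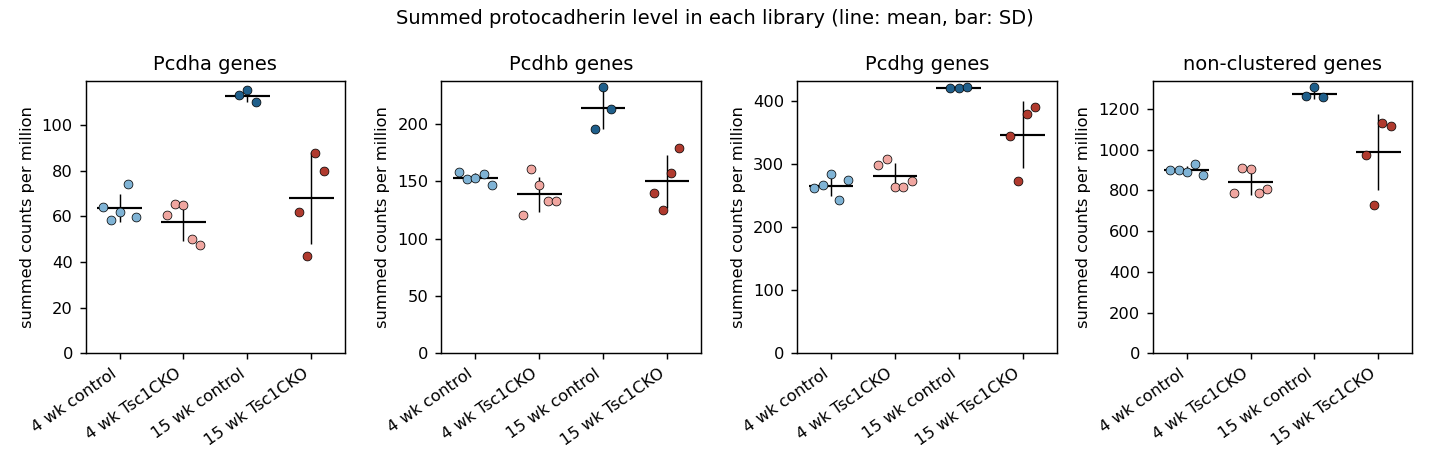
Summed CPM of the Pcdha, Pcdhb, Pcdhg and non-clustered genes in each of the 17 libraries, with the group mean as a line and the SD as a bar. In all 4 panels the 3 controls of 15 weeks lie above every control of 4 weeks, and the 4 Tsc1CKO libraries of 15 weeks lie below those 3 controls.

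The second comparison was of genotype at 15 weeks. It shares its 3 control libraries with the comparison of age in controls, so a gene that is high in those 3 is high with age and low in Tsc1CKO at once, and the values of each comparison stand side by side without being joined. Protocadherins had lower values in Tsc1CKO: 63 of 67 members had a negative log2 fold change, where 47.7% of all 15015 genes tested did. Only 2 passed the adjusted test, Pcdh20 and Pcdhb17, both lower, where 0.42% of all genes were called lower; 0 were called higher, where 3.36% of all genes were (edgeR). At an unadjusted p under 0.05, 28 members were lower (24 clustered and 4 non-clustered), where 9.59% of all genes were, and 0 were higher, where 15.7% of all genes were. The median log2 fold change was -0.73 for Pcdha, -0.62 for Pcdhb, -0.31 for Pcdhg, -0.51 for all clustered genes, -0.35 for the non-clustered and 0.02 for all genes tested. In 26 members every Tsc1CKO library lay below every control and in 1 above, where the shares over all genes were 13.3% and 11.2%.

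Summed over an array, the groups were set apart. Pcdha CPM were 61.8, 42.8, 87.5 and 80.0 in Tsc1CKO replicates 1 to 4 and 113, 115 and 110.0 in controls 1 to 3. Pcdhb CPM were 139, 125, 157 and 179 against 196, 232 and 213, and Pcdhg CPM were 344, 274, 379 and 391 against 421, 422 and 423. The non-clustered genes summed to 973, 727, 1132 and 1117 CPM against 1260.4, 1307 and 1257 CPM. Replicate 2 was lowest in every array. For Pcdhg the 3 controls had an SD of 1.18 CPM and the Tsc1CKO libraries an SD of 52.7 CPM. The wider spread in Tsc1CKO held for the other sums too.

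The strongest single difference was in Pcdh20 (chromosome 14, 88864554 to 88871203, minus strand), which neurons need to settle in the granular layer of the cortex. It was at 13.4, 11.6, 12.4 and 26.0 CPM in Tsc1CKO and at 40.9, 50.04 and 32.9 CPM in controls. Every Tsc1CKO library was below every control, with replicate 4 nearest to them, and the log2 fold change was -1.36 ± 0.29 (edgeR adjusted p = 0.0435). Pcdhb17 (chromosome 18, 37644675 to 37647943, plus strand) was at 12.6, 12.9, 14.1 and 17.1 CPM against 22.8, 22.9 and 22.5 CPM, a change of -0.66 ± 0.14 (edgeR adjusted p = 0.0414). Its 3 controls were almost equal, and replicate 4 was again nearest. Both calls were lost without Tsc1CKO replicate 1 or 3 or any 1 control, and that of Pcdh20 also without Tsc1CKO replicate 2; over all alternatives the log2 fold change of Pcdh20 was between -1.72 and -1.19 and its adjusted p between 0.000286 and 0.173, and Pcdhb17 lay between -0.78 and -0.58 with an adjusted p of 0.000899 to 0.181.

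**Figure D3:**
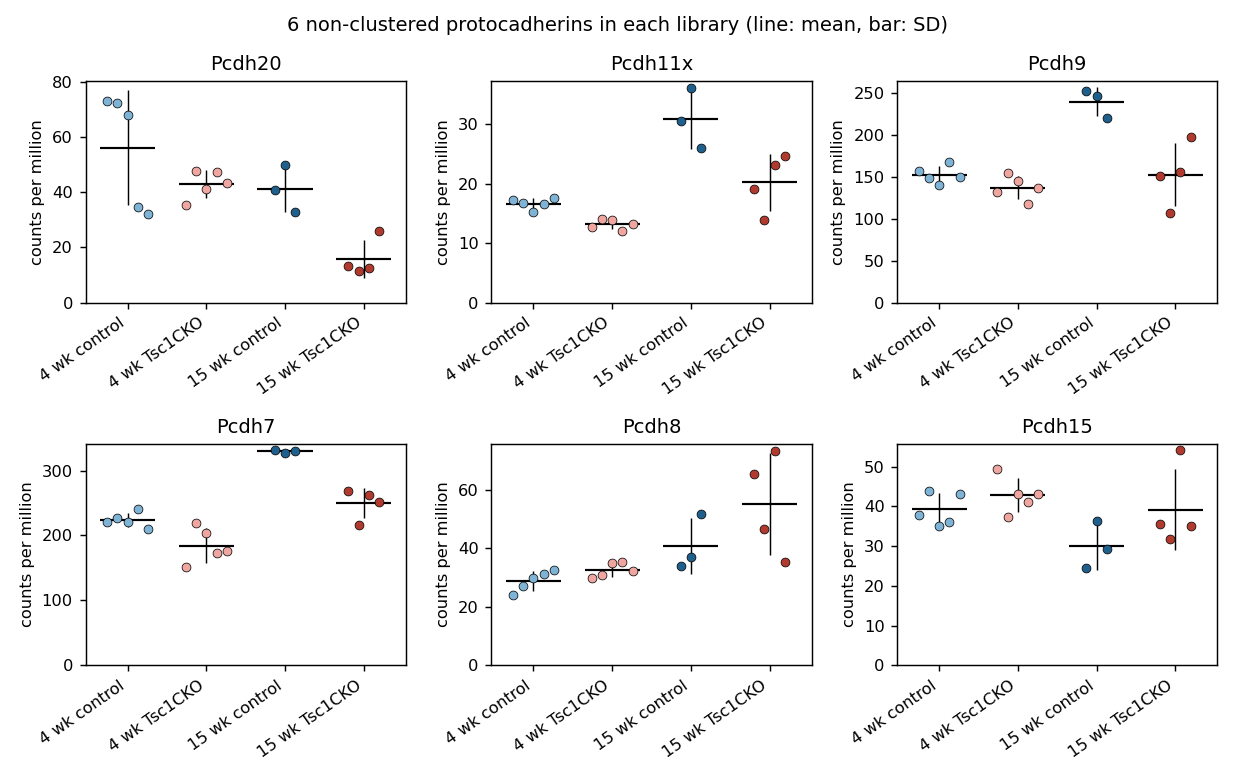
CPM of 6 non-clustered protocadherins in each library by group, with the group mean as a line and the SD as a bar. Pcdh20 is lowest in the 15-week Tsc1CKO libraries, Pcdh11x, Pcdh9 and Pcdh7 are highest in 15-week controls, and Pcdh8 is highest in 15-week Tsc1CKO, where its 4 libraries spread from 35.3 to 73.4 CPM.

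Pcdh9, Pcdh7 and Pcdh11x had lower values without passing. Pcdh9 was at 151, 107, 155 and 198 CPM in Tsc1CKO against 252, 247 and 220.3 CPM, a log2 fold change of -0.63 ± 0.19 (edgeR adjusted p = 0.095). Pcdh7 was at 268, 217, 262 and 252 CPM against 332, 327 and 331 CPM, a change of -0.38 ± 0.11 (edgeR adjusted p = 0.0887). Pcdh11x was at 19.1, 13.9, 23.1 and 24.7 CPM against 30.5, 36.1 and 26.0 CPM, a change of -0.59 ± 0.21 (edgeR adjusted p = 0.127). In each of these every Tsc1CKO library was below every control. Pcdh15 had a positive value of 0.41 ± 0.21 (edgeR adjusted p = 0.266), with Tsc1CKO replicate 3 alone at 54.2 CPM and the other 3 between 31.8 and 35.6 CPM, beside controls at 24.4, 36.2 and 29.4 CPM.

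The opposite sign to Pcdh20 was seen in Pcdh8 (chromosome 14, 80166587 to 80171119, minus strand). It was at 65.4, 46.8, 73.4 and 35.3 CPM in Tsc1CKO and at 33.9, 37.0 and 51.9 CPM in controls, so the groups overlapped, and its change of 0.45 ± 0.26 did not pass (edgeR adjusted p = 0.297). The promoter windows of these 2 non-clustered genes on one chromosome are shown because they stood at the 2 ends of the genotype comparison. They run from 250 bases before to 50 bases after the start in RefSeq's GRCm38.p6, a later build than that of the counts, 5′ to 3′ on the gene's own strand, with each CG dinucleotide in capitals.
Pcdh20 (chr14:88471347-88471646, minus strand): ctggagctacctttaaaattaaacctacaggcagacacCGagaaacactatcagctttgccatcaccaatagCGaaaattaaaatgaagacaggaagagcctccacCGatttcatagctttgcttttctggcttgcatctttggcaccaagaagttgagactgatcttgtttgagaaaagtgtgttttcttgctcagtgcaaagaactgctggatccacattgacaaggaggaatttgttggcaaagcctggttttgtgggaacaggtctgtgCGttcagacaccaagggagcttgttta
Pcdh8 (chr14:79771263-79771562, minus strand): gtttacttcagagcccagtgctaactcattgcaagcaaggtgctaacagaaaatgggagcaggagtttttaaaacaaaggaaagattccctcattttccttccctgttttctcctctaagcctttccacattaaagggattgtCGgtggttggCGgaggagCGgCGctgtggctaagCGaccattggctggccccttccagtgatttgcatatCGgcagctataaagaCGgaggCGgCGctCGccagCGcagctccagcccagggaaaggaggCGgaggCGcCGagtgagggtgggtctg
The Pcdh20 window holds 4 CG and the Pcdh8 window 14, where the median of all 32851 windows is 7 and 94.6% hold at least 1. The motif TATAAA, searched on both strands, is in the Pcdh8 window and not in that of Pcdh20; 13.6% of all windows hold it. Of the other non-clustered genes with a window, the CG count was 24 for Pcdh10, 26 for Pcdh17, 23 for Pcdh18, 18 for Pcdh19, 11 for Pcdh7, 18 and 19 for the 2 windows of Pcdh9, and 8 for Pcdh15, whose window also holds TATAAA. Only 9 of the 71 members have a window in the table used. These are descriptions of sequence, and nothing in the counts bears on their use.

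In the clustered arrays, Pcdhac2 was at 31.0, 19.7, 41.9 and 33.1 CPM in Tsc1CKO and at 53.1, 53.8 and 51.7 CPM in controls, a change of -0.73 ± 0.22 that missed the threshold (edgeR adjusted p = 0.088). Pcdhb8 had -0.79 ± 0.21, Pcdha6 -0.82 ± 0.23 and Pcdhgb1 -0.67 ± 0.20, with edgeR adjusted p of 0.0638, 0.0726 and 0.081. Pcdhgc5 was at 96.4, 76.2, 120.3 and 97.0 CPM against 121, 120.6 and 137 CPM, with replicate 3 just below the lowest control (-0.35 ± 0.16, edgeR adjusted p = 0.207). Pcdhgc3 was the 1 member with every Tsc1CKO library above every control, at 73.7, 71.1, 73.8 and 81.8 CPM against 64.2, 70.9 and 68.9 CPM, a change of 0.17 ± 0.11 (edgeR adjusted p = 0.354). Its share of Pcdhg CPM was 21.9 ± 2.82% (SD, n = 4) in Tsc1CKO and 16.1 ± 0.788% in controls.

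How many members were called lower at 15 weeks depended on the fit and on single libraries. DESeq2 called 12, where 4.41% of all genes were called lower, and 0 higher, where 8.42% were; the fit of all 17 libraries called 27 lower, where 10.5% were, and limma voom with quality weights, added after seeing the data, 39, where 16.1% of all genes were. Without Tsc1CKO replicate 4, edgeR called 21, where 9.8% of all genes were, and the clustered median was -0.63; without replicate 2 it called 1, where 0.562% of all genes were, and the median was -0.39; without replicate 1 or 3, or any 1 control, it called 0. The direction of the clustered median held in each of these fits.

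Markers of other cells moved with genotype at 15 weeks. Of 12 astrocyte markers 8 were higher and summed to 12701 to 14911 CPM in Tsc1CKO against 7529 to 8471 CPM in controls; of 11 microglia markers 3 were higher, at 622 to 1208 CPM against 405 to 467 CPM. None of either list was at 0. Of 9 excitatory neuron markers 0 passed (edgeR; 4 lower at an unadjusted p under 0.05, median -0.34), and their sum was 6045 to 7838 CPM against 7916 to 10053 CPM. Of 11 upper-layer markers 0 passed (5 lower at an unadjusted p under 0.05, median -0.58). Of 10 inhibitory neuron markers 1 was higher and 1 lower, 5 had a negative value and the median was -0.10. With the unadjusted p at under 0.05, 2 were higher, where 15.7% of all genes were, and 3 lower, where 9.59% were (edgeR). Their sum was 3132, 2583, 2122 and 1054 CPM in Tsc1CKO replicates 1 to 4 against 1265 to 1311 CPM in controls, so replicate 4 alone was below the controls. The sum thus did not move as the median of the list did. These lists, and those of protocadherin partners, were not refitted with libraries left out. Over all genes, the longest of the 3 length classes had a median of -0.12 and the shortest of 0.15. The part of cell makeup and of length in the protocadherin values was not tested.

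At 4 weeks the genotypes were close. Of 68 members 0 were called in either direction by edgeR, where 0.0407% of all 14754 genes were called higher and 0% lower; with the unadjusted p at under 0.05, 2 members were higher and 4 lower, where 9.81% and 8.95% of all genes were, and limma voom called 0 (over all genes 0% lower). The medians were -0.04 for Pcdha, -0.12 for Pcdhb, 0.08 for Pcdhg and 0.05 for the non-clustered genes, beside 0.00 for all genes tested. Of the 68, 37 had a negative value, where 49% of all genes did. DESeq2 called 2 lower, where 1.68% of all genes were, as did edgeR without Tsc1CKO replicate 2, where 1.05% were.

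Pcdh11x was the 1 member with every 4-week Tsc1CKO library below every control, where 1.48% of all genes were. It was at 12.7, 14.1, 13.8, 12.1 and 13.3 CPM in Tsc1CKO and at 17.2, 16.7, 15.2, 16.6 and 17.6 CPM in controls, a log2 fold change of -0.34 ± 0.08 (edgeR adjusted p = 0.082). Among genes in the authors' deposited table for this age it stands at -0.348 ± 0.0934 (SE) with an adjusted p of 0.0127. The authors' deposited table for 15 weeks, which holds only a part of the genes, lists no protocadherin. Pcdh20 and Pcdhb17, called above at 15 weeks, are therefore not in it. Pcdh7 had -0.28 ± 0.09 (edgeR adjusted p = 0.127), with Tsc1CKO at 152, 219, 203, 173 and 176 CPM and controls at 221, 227, 221, 240.3 and 211 CPM. Both genes thus had lower values in Tsc1CKO at each age, at 4 weeks in libraries that the 15-week comparison does not use. Neither passed the adjusted edgeR test at either age. A negative value was common among members: 63 of 67 had it at 15 weeks and 37 of 68 at 4 weeks, where 47.7% and 49% of all genes did.

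Pcdhb9 had -0.51 ± 0.15 (edgeR adjusted p = 0.118) and in the authors' deposited table -0.518 ± 0.169 with an adjusted p of 0.0490. Its 4-week libraries were at 6.88, 8.37, 6.68, 8.52 and 8.13 CPM in Tsc1CKO and at 12.97, 12.04, 12.5, 10.5 and 7.09 CPM in controls, so 4 controls were above every Tsc1CKO library and the fifth among them. Pcdhb12 had -0.46 ± 0.16 (edgeR adjusted p = 0.146). On the higher side, Pcdhgb8 had 0.88 ± 0.32 and Pcdh12, at 0.170 to 2.12 CPM in this age, had 1.03 ± 0.36, with edgeR adjusted p of 0.175 and 0.15. Every Tsc1CKO library was above every control in 1 member, Pcdhga5 (0.21 ± 0.11), where 1.84% of all genes were. At this age no cell marker passed the adjusted edgeR test. With the unadjusted p at under 0.05, 7 of 10 endothelial, 8 of 12 astrocyte and 6 of 8 oligodendrocyte precursor markers were higher, where 9.81% of all genes were. Of 10 inhibitory neuron markers 1 was lower at that p, and all 10 had a negative value. The part of cell makeup in the protocadherin values was not tested.

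The change of the genotype effect from 4 to 15 weeks was tested in all 17 libraries. Of 68 members 0 were called, where 0.174% of all 15492 genes were called higher and 0.0387% lower (edgeR), and DESeq2 called 0 lower as well, where 2.64% of all genes were. The values were nonetheless one-sided: 63 of 68 were negative, where 50.6% of all genes were, 23 had an unadjusted p under 0.05 and were negative, where 12.4% of all genes were, and 0 were positive at that p, where 12.7% of all genes were. The medians were -0.50 for clustered and -0.34 for non-clustered genes, beside -0.01 for all genes. The lowest adjusted p were those of Pcdhga9 (-0.77 ± 0.25, edgeR adjusted p = 0.0958) and Pcdhgb1 (-0.77 ± 0.26, edgeR adjusted p = 0.0992). Pcdh20 had -1.002 ± 0.39 (edgeR adjusted p = 0.139) and Pcdhgc5 -0.43 ± 0.17 (edgeR adjusted p = 0.137). Without 15-week Tsc1CKO replicate 4 there were 18 lower calls, where 11.4% of all genes were called lower, and limma voom gave 26, where 13.8% were; without replicate 2 there were 0 and the clustered median was -0.35.

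Age was also compared within Tsc1CKO, a comparison added after seeing the data. It shares no library with the comparison of age in controls, but it shares its Tsc1CKO libraries with both genotype comparisons. Here 14 of 68 members rose, where 13% of all 14948 genes tested did, and 2 fell, where 10.8% did (edgeR). The higher count moved with single libraries. With the unadjusted p at under 0.05, 24 were higher, where 20.1% of all genes were, and 50 had a positive value, where 50.3% did. Every 15-week library was above every 4-week library in 4 members and below in 2, where 9.2% and 10% of all genes were. By array, 0 of 13 Pcdha genes rose (0 at an unadjusted p under 0.05, median 0.07), 2 of 21 Pcdhb (0.10), 7 of 22 Pcdhg (0.45) and 5 of 12 non-clustered genes (0.21). The medians in controls were 0.75, 0.49, 0.92 and 0.53 in the same order, and the difference between the 2 age effects is the same contrast as the change of genotype effect above, in which 0 members were called. The count of higher calls was 23 without 15-week Tsc1CKO replicate 2, where 13.4% of all genes were called higher, and 9 without replicate 4, where 17.1% were. It was 6 without replicate 1 (6.51% of all genes), 5 without replicate 3 (9.63%) and 6 to 13 without any 1 of the 4-week libraries (8.72% to 10.5%).

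The rises in Tsc1CKO included Pcdhga7 (0.81 ± 0.15, edgeR adjusted p = 0.00447), Pcdhga8 (0.69 ± 0.16), Pcdhgb6 (0.66 ± 0.15), Pcdh8 (0.77 ± 0.18), Pcdh1 (0.66 ± 0.20) and Pcdh11x (0.63 ± 0.15). Pcdh9 had 0.16 ± 0.16 and Pcdhac2 0.40 ± 0.21, with edgeR adjusted p of 0.471 and 0.185. Pcdh20 fell by 1.43 on the log2 scale (SE 0.22, edgeR adjusted p = 0.00266), from 35.4, 47.8, 41.2, 47.3 and 43.2 CPM at 4 weeks to 13.4, 11.6, 12.4 and 26.0 CPM at 15 weeks, without overlap. Of cell markers in the same comparison, 6 of 11 upper-layer genes fell (median -0.61), from a sum of 1009 to 1394 CPM to 713 to 1092 CPM, 5 of 10 oligodendrocyte genes fell and 6 of 11 microglia genes rose, with none at 0. Their part in the Pcdh20 change was not tested. Pcdh12 fell by 1.44 (SE 0.34) at levels of 2.12 CPM and below. The interval of the Pcdh20 change, at 2 SE, ran from -1.87 to -0.99, while in controls its change of -0.43 ± 0.34 did not pass. The difference between these age effects is the value of -1.002 ± 0.39 given above, which did not pass either.

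**Figure D4:**
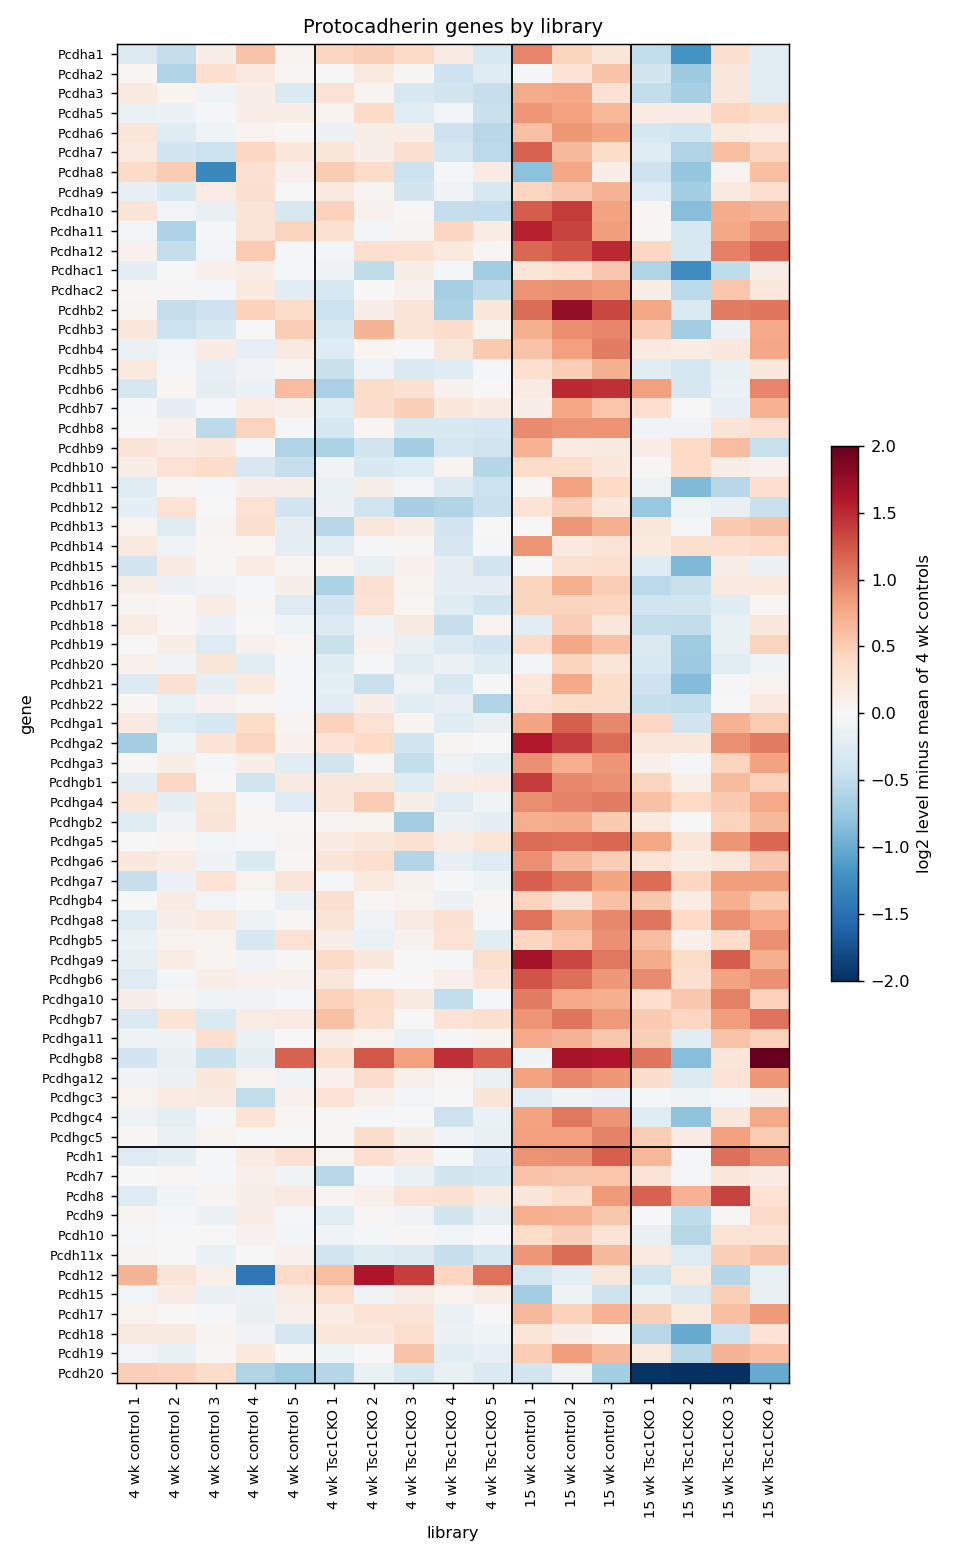
Log2 level (CPM plus 0.1) of each protocadherin gene passing the filter in each of the 17 libraries, less the mean of the 4-week controls; colours end at 2 and -2, so values beyond are shown at the end colour. The 15-week control columns are red in nearly every row, the 15-week Tsc1CKO columns are mixed, with replicate 2 the bluest, and Pcdh20 is the darkest blue row there.

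Libraries of one group differed by more in some genes than in others. The within-group SD of log2 CPM had a median of 0.34 over 13 Pcdha, 0.28 over 21 Pcdhb, 0.24 over 22 Pcdhg and 0.26 over 12 non-clustered genes. The widest was Pcdhgb8 at 0.86, where counting error alone would give 0.15. Pcdhb6 was at 0.53 (counting error 0.23), Pcdhb9 at 0.33 (0.11) and Pcdh20 at 0.45 (0.06). Other genes were wider than Pcdhb9, among them Pcdha8 at 0.62 (0.35), Pcdh12 at 0.57 (0.38), Pcdhb2 at 0.47 (0.19) and Pcdhb3 at 0.43 (0.12). Counting error was not taken out of the medians above. Pcdhgb8, Pcdhb6 and Pcdhb9, singled out after their values were seen, lie in neighbouring arrays. Pcdhb6 is at 37493682 to 37497087 and Pcdhb9 at 37560509 to 37563563 of chromosome 18, plus strand.

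Pcdhgb8 was at 2.13, 2.53, 2.04, 2.43 and 6.48 CPM in 4-week controls, at 3.55, 6.75, 5.05, 7.87 and 6.56 CPM in 4-week Tsc1CKO, at 2.63, 9.06 and 8.81 CPM in 15-week controls and at 6.04, 1.52, 3.34 and 13.7 CPM in 15-week Tsc1CKO. Pcdhb6, in the same order, was at 1.35, 1.76, 1.48, 1.58 and 2.67 CPM, at 1.06, 2.25, 2.15, 1.82 and 1.71 CPM, at 1.93, 5.01 and 4.90 CPM and at 3.12, 1.33, 1.56 and 3.46 CPM. Pcdhb9 was at 12.97, 12.04, 12.5, 10.5 and 7.09 CPM, at 6.88, 8.37, 6.68, 8.52 and 8.13 CPM, at 17.4, 12.1 and 12.2 CPM and at 11.8, 14.3, 16.5 and 7.91 CPM. In both control groups and in the older Tsc1CKO group the libraries lowest in Pcdhgb8 were low in Pcdhb6 and high in Pcdhb9, and in 4-week Tsc1CKO replicate 1 was lowest in Pcdhgb8 and Pcdhb6 but not highest in Pcdhb9. In Pcdhgb8, 4 of 5 younger controls (2.04 to 2.53 CPM) and 1 of 3 older controls (2.63 CPM) were of the low kind. The 15-week Tsc1CKO libraries ran from 1.52 to 13.7 CPM. Every 4-week Tsc1CKO library, at 3.55 to 7.87 CPM, was above those 4 younger controls. At 4 weeks the split in Pcdhgb8 thus lay largely along genotype. Its part in the 4-week genotype values of these 3 genes was not tested.

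**Figure D5:**
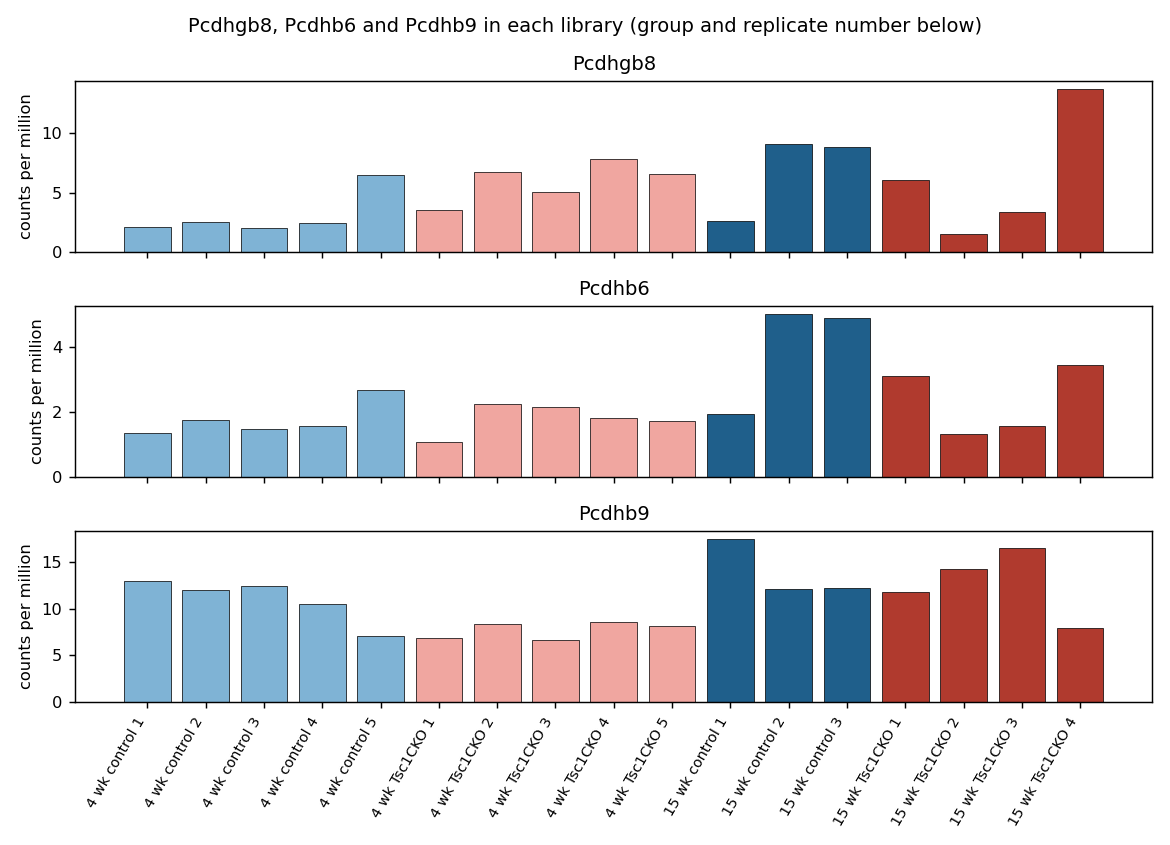
CPM of Pcdhgb8, Pcdhb6 and Pcdhb9 in each library, in 1 row per gene, with bars from 0 coloured by group. In 4-week control replicate 5 and 15-week control replicates 2 and 3 the bars of Pcdhgb8 and Pcdhb6 are tall, and those of Pcdhb9 are lower than in the other controls of that age.

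Genes that act with protocadherins were described from lists. Of 23 regulators of promoter choice in the clustered arrays, 9 rose with age in controls and 2 fell (edgeR; median 0.13), where 22.4% of all genes rose and 19.3% fell, and the counts of the lists that follow are to be read against these shares. Smc1a and Smc3, subunits of the cohesin ring that loops these promoters to their enhancers, rose by 0.96 ± 0.07 and 0.54 ± 0.07, the cohesin loader Nipbl by 0.34 ± 0.08 and the chromatin repressor Smchd1 by 0.38 ± 0.07, while the DNA methyltransferase Dnmt3a had -0.33 ± 0.11 (edgeR adjusted p = 0.030). With genotype at 15 weeks 0 of these 23 passed (2 lower at an unadjusted p under 0.05, median -0.24), although 22 had a negative value. Cytoplasmic and surface partners, among them Ptk2, the focal adhesion kinase held in check by clustered protocadherins, and the neuroligin Nlgn1, had 7 of 14 higher and 2 lower with age, and Ptk2 rose by 0.39 ± 0.09.

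Other adhesion genes were counted in the same way for age in controls. Of 18 classical and type II cadherins 7 rose and 0 fell (0 also at an unadjusted p under 0.05), with Cdh13 at 0.94 ± 0.16 and Cdh2, N-cadherin, at 0.35 ± 0.09, and the list's median was 0.24. Of 9 Fat, Dachsous and flamingo cadherins 5 rose, with Celsr2 at 0.98 ± 0.12. Of 7 calsyntenins and related cadherins 3 rose, with Clstn3 at 0.95 ± 0.07 and Clstn1 at 0.78 ± 0.07. The WAVE complex, which clustered protocadherins can recruit to actin, had 3 of 9 higher, catenins 3 of 8 and the proteases that cut cadherins 4 of 7 higher and 1 lower. With genotype at 15 weeks, Clstn1 fell by 0.73 (SE 0.16, edgeR adjusted p = 0.0484) and Cdh23, the tip-link partner of Pcdh15, rose by 1.81 ± 0.38 (edgeR adjusted p = 0.0401), and 0 of the 18 cadherins passed, with 4 lower at an unadjusted p under 0.05. At 4 weeks 0 genes of any of these lists passed the edgeR test.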

How the data were processed

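Raw gene counts were deposited by the authors for 17 libraries, with reads split by bcl2fastq 1.8.4 and aligned with Tophat 2.0.4 to mm9, per the submitters' processing notes; the read counter is not given in the sources used here. The kit does not mark strand, per the labels' protocols, so reads of overlapping antisense genes cannot be told apart. The authors also deposited normalized counts (a signal, used to check the column order, in which all 17 columns matched their own counts best) and DESeq2 tables with log2 fold changes, test scores and p-values, from which only values named as the authors' were taken. The header of the count table is 1 place off, so columns were read by place. Every gene was fitted with edgeR 4.0.16 under R 4.3.3 (TMM, filterByExpr, robust quasi-likelihood), with Benjamini-Hochberg adjustment over all genes tested; errors of fold changes are SE. DESeq2 1.42.0 and limma 3.58.1 (voom with quality weights, added after seeing the data, as was the comparison of age in Tsc1CKO) were alternatives, with other scaling, other filters, the replicate block and each library left out. Genes are named by rule: all non-clustered genes, the C-type isoforms, clustered genes called in a comparison the highest levels, and of each gene list those called or with the smallest p. The members, lists and rules were chosen with earlier results of these data known. Between replicates, counts differed by 6.81 to 91.3 times sampling noise (chi-square per degree of freedom, 29 pairs), so no library was counted as a repeat. Promoter sequences are RefSeq's, in GRCm38.p6.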

Additional observations from a re-analysis of the deposited data

Results flagged for a closer look

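In 7 of 171 gene and group sets of 4 or 5 libraries, 1 library lay far from the others, by the gap to its neighbour as a share of the group's range; chance alone gives about 1 in 20. The library of 15-week Tsc1CKO replicate 4 was high in Pcdh20, at 26.0 CPM with the next at 13.4 (gap share 0.872), and in Pcdhb4, at 4.76 CPM with the next at 3.18 (0.917). Replicate 3 of that group was high in Pcdh15, at 54.2 CPM with the next at 35.6 (0.829). In 4-week Tsc1CKO, replicate 3 was high in Pcdh19, at 58.5 CPM with the next at 39.8 (0.765), and low in Pcdhgb1, at 3.43 CPM with the next at 4.44 (0.760). Replicate 2 of the same group was high in Pcdhb8, at 2.25 CPM with the next at 1.75 (0.902). Replicate 4 of the 4-week controls was low in Pcdhgc3, at 53.1 CPM with the next at 79.1 (0.823).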

How the results depend on the processing

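The age result in controls (43 to 52 members higher) kept its direction in the alternatives run; the count of lower calls was 0 in the fit of all 17 libraries, 3 with the replicate block and 0 to 2 with 1 library left out. The genotype calls at 15 weeks did not hold across fits: lower calls were 12 with DESeq2, 27 with all 17 libraries (10.5% of all genes), 15 and 1 higher with the replicate block (7.93% and 10.996%), 39 and 1 higher with limma voom (16.1% and 18.3%) and 0 to 21 with 1 library left out (0% to 9.8%). In the replicate block, 15-week Tsc1CKO replicate 4 had no control of its number, so it added nothing to the genotype value. Libraries without a same-numbered partner likewise added nothing to the block fits of age. At 4 weeks lower calls were 2 with DESeq2 and 0 to 2 with 1 library left out. For the change of genotype effect they were 11 with the replicate block (8.88% of all genes), 26 with limma voom (13.8%) and 0 to 18 with 1 library left out, and the non-clustered median was -0.47 to -0.17. Higher calls with age in Tsc1CKO were 6 with library totals alone (9.11% of all genes), 4 with the replicate block (6.28%) and 5 to 23 with 1 library left out. The deviations of same-numbered libraries had correlations of -0.10 to 0.20 at 15 weeks and -0.11 to 0.07 at 4 weeks. With so few libraries in a group, these values cannot tell whether such libraries share more than a number. Some small values changed sign: with limma voom, Pcdhga8 at 15 weeks (0.0848) and Pcdhga11 at 4 weeks (-0.0216); with the replicate block, the change of genotype effect of Pcdhgc3 (-0.0212); and with age in Tsc1CKO, Pcdh10 (-0.0431 with library totals alone, -0.0453 with limma voom), Pcdha9 (-0.0346 with totals, -0.0361 with the block, -0.0438 with limma voom) and Pcdhgc4 (-0.000169 with limma voom). With 1 library left out the ranges that crossed 0 were, at 15 weeks, Pcdh17 -0.156 to 0.0685, Pcdhga8 -0.178 to 0.0158, Pcdhgb5 -0.255 to 0.0597 and Pcdhb14 -0.264 to 0.100; at 4 weeks, Pcdhga11 -0.0344 to 0.0944, Pcdh1 -0.0320 to 0.126, Pcdhgc5 -0.0255 to 0.105, Pcdh19 -0.120 to 0.102 and Pcdhgc3 -0.00459 to 0.145. For the change of genotype effect that was Pcdhgc3, -0.0100 to 0.139. For age in Tsc1CKO they were Pcdh10 -0.0738 to 0.187, Pcdha9 -0.123 to 0.208, Pcdh9 -0.00416 to 0.296, Pcdhgc4 -0.123 to 0.409 and Pcdhb17 -0.234 to 0.0123. The cause was not tested. Scaling by library totals alone moved the median of all genes by -0.10 with age in controls, where 45 members were still higher. Taking the longest transcript as length moved 3 of 33 levels per kb, Pcdh1 to 25.0 and Pcdh10 to 33.7 among them.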
